A study of Mus musculus with 11 samples.

Results

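The vascular endothelial growth factors (VEGF) and the angiopoietins are the main pairs of secreted ligand and endothelial receptor that set how brain vessels grow, leak and are maintained. Their 10 genes were taken by symbol from the gene count table, 10 of 36666 genes listed: the ligands Vegfa, Vegfb, Vegfc, Angpt1 and Angpt2 and the receptors Kdr, Flt1, Nrp1, Tek and Tie1. They were read in RNA from 1 cerebral hemisphere of each of 11 male mice aged 1 year, with the cerebellum removed. Of these, 7 were Polg mutator mice (D257A/D257A), homozygous for a mutation that disables the proofreading of the mitochondrial DNA polymerase. The other 4 were controls, 3 of them WT/WT and 1 WT/D257A, so 1 control carried 1 copy of the mutant allele. All came from breeding of heterozygous parents, the strain label was C57/Bl6, and no further treatment was given. The allele is in the germ line and so is not confined to vessels, and the WT/D257A genotype rests on 1 mouse. The 10 genes were singled out with the results of the mutator against control comparison already known, so they count as chosen by their CPM in these same mice, and their levels are given as a description, without p-values. How many of them the fit over all genes called is given beside the share of all genes, as a description too.

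VEGF-A, made in the brain mainly by astrocytes, choroid plexus and some neurons, binds VEGFR2 (Kdr), which carries most of the growth and permeability signal, and VEGFR1 (Flt1), which binds it more tightly and signals weakly. Flt1 is also made as a soluble, secreted form without a membrane anchor, which traps the ligand. Angiopoietin-1 activates the receptor Tie2 (Tek) and favours quiescent, tight vessels, whereas angiopoietin-2 is made by endothelial cells, often opposes Tie2 activation and is stored in the same granules as von Willebrand factor. Tie1 is a partner of Tie2 with no ligand of its own that is well defined.

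Library depth, the sum of gene counts, ran from 28249345 to 121182250 in the controls and from 37821243 to 91219204 in the mutators. Levels are given as CPM (gene counts scaled to a common library size), corrected by TMM for differences in library makeup, and fold changes are mutator over control from the edgeR fit over all 17983 genes tested, with the standard error (SE). Mutator 248 had 3.00 gene counts for each aligned read listed for it, against 0.744 to 0.775 in the other 10 mice, and 76.29% of its reads were listed as aligned. Its counts exceed the aligned reads listed, so the listed totals may cover a part of its sequencing, and both values are limited by that. Among the mutators it was highest for 5 of the 10 genes (Kdr, Flt1, Nrp1, Angpt1 and Angpt2) and lowest for Vegfb. Control 246, the smallest library, was lowest among the controls for 5 (Vegfa, Vegfc, Kdr, Angpt1 and Angpt2) and highest for 3 (Vegfb, Tek and Tie1). Results are therefore also given without both mice.

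All 10 genes passed the filter on low counts. Angpt2, Kdr and Vegfa were higher in every mutator than in any control, and Vegfb was lower in every mutator. Flt1 and Angpt1 were higher on average with overlap between the groups, Tek and Tie1 were lower on average with overlap, and the means of Nrp1 and Vegfc differed by less than the SD of the controls. Of the 10 genes, 2 (Vegfa and Angpt2, both higher) had an adjusted p under 0.05, against 1.24% of all genes tested, 0.439% higher and 0.801% lower. DESeq2 called 5 (with Vegfb, Kdr and Flt1 added), against 3.58% of the genes it tested. The edgeR call of Vegfa was lost without controls 237, 239 or 246 or mutators 211 or 248, and that of Angpt2 without controls 237, 239 or 246. The groups did not overlap for 4 of the 10, against 2.62% of all genes, 3 on the higher side (1.20% of all genes) and 1 on the lower side (1.42%). Since the genes were selected on these values, nothing is read from the counts. In bulk tissue, fewer cells of a type and less RNA per cell cannot be told apart.

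**Figure D1:**
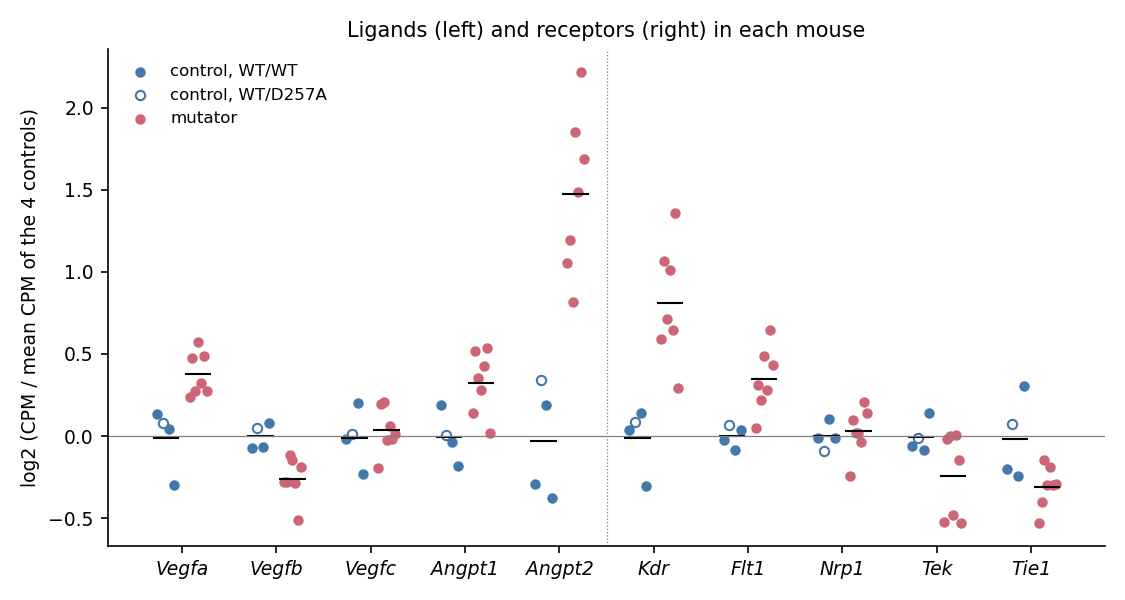
CPM of each gene in each mouse on a log2 scale, relative to the mean of the 4 controls; points are mice, open points the WT/D257A control and bars the mean of the log2 values. Mutators lie wholly above the controls for Vegfa, Angpt2 and Kdr and wholly below for Vegfb.

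Per kilobase of exonic sequence, the controls ranked the genes from Vegfb (31.6 ± 1.7 CPM per kb, SD, n = 4) and Vegfa (15.1 ± 1.9), through Nrp1 (7.10 ± 0.40), Flt1 (6.06 ± 0.28), Tek (3.24 ± 0.23) and Tie1 (2.39 ± 0.43), to Kdr (1.63 ± 0.21), Angpt1 (1.61 ± 0.17), Vegfc (1.39 ± 0.17) and Angpt2 (0.536 ± 0.130). Neighbours in this order had control ranges that overlapped for Kdr and Angpt1 and for Angpt1 and Vegfc, and the other neighbours did not overlap. The order depends on the length used, the exons of all annotated transcripts together. Of the 11583 bases of Flt1, 4066 belong only to its soluble form and held 11.5% of its exon counts in WT/WT mice. Pieces of Kdr of 490 and 864 bases had means of 0.4 and 1.1 counts per mouse. Other lengths were not tested. In the mutators Kdr stood at 2.94 ± 0.74 CPM per kb (SD, n = 7) and Tek at 2.78 ± 0.49, and Angpt2 at 1.56 ± 0.54 lay beside Vegfc at 1.43 ± 0.14. Angpt2, the scarcest of the 10 in the controls, was thus measured from few reads, between 42 and 198 per control and 188 and 855 per mutator.

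**Figure D2:**
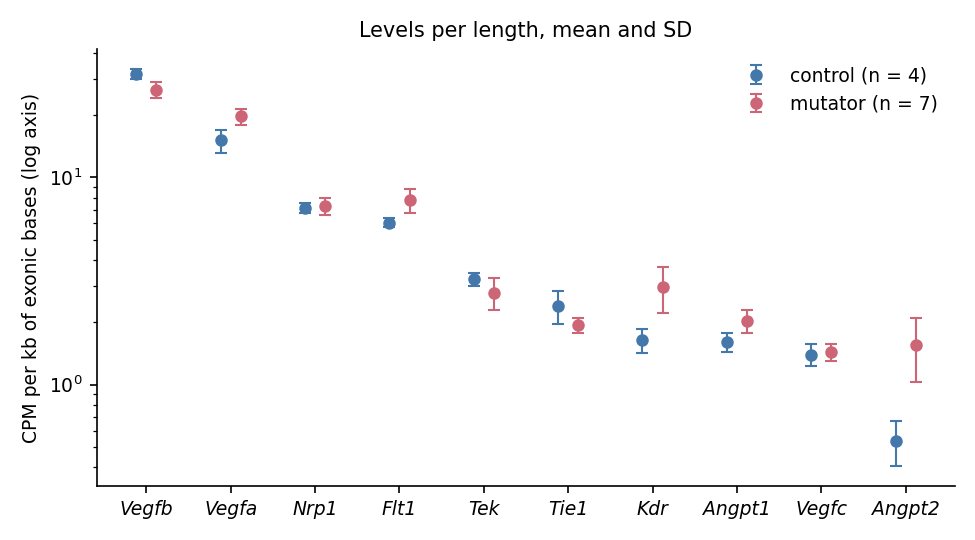
Level of each gene in CPM per kilobase of exonic bases on a log axis, as mean and SD of 4 controls and 7 mutators, ordered by the control mean. Angpt2 is the lowest gene of the controls at 0.536 and stands at 1.56 in the mutators, and Kdr goes from 1.63 to 2.94.

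Angpt2 had the largest fold of the 10. Its locus is the minus strand of chromosome 8, bases 18690263 to 18741562 (mm9, the build of all gene coordinates here). Its levels were 1.62 CPM in control 205, 2.51 in control 237 (the WT/D257A mouse), 2.26 in control 239 and 1.53 in control 246. The 7 mutators ran from 3.48 (mouse 217) over a median of 5.54 to 9.20 (mouse 248). The lowest mutator was above the highest control, and the mutators differed among themselves by 2.65-fold. The mean went from 1.98 ± 0.48 (SD, n = 4) to 5.77 ± 1.98 (SD, n = 7), a log2 fold change of 1.55 (SE 0.28). Without control 246 and mutator 248 it was 1.31.

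Angpt1, on chromosome 15 from 42256273 to 42508523, had between 6.03 and 7.82 CPM in the controls and between 6.94 and 9.92 in the mutators. In 5 of 7 mutators it exceeded the highest control, with a log2 fold change of 0.33 (SE 0.10). The ratio of Angpt2 to Angpt1 within a mouse was 0.207, 0.365, 0.338 and 0.253 in controls 205, 237, 239 and 246, and ran from 0.396 over 0.601 to 0.927 in the mutators. The groups did not overlap, and the ratio differed by 1.17 on the log2 scale. Angpt2 alone already lay apart, so the separation of the ratio is a description. The counts are not divided by length here, so the ratio is read between mice and not as a balance of the ligands.

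**Figure D3:**
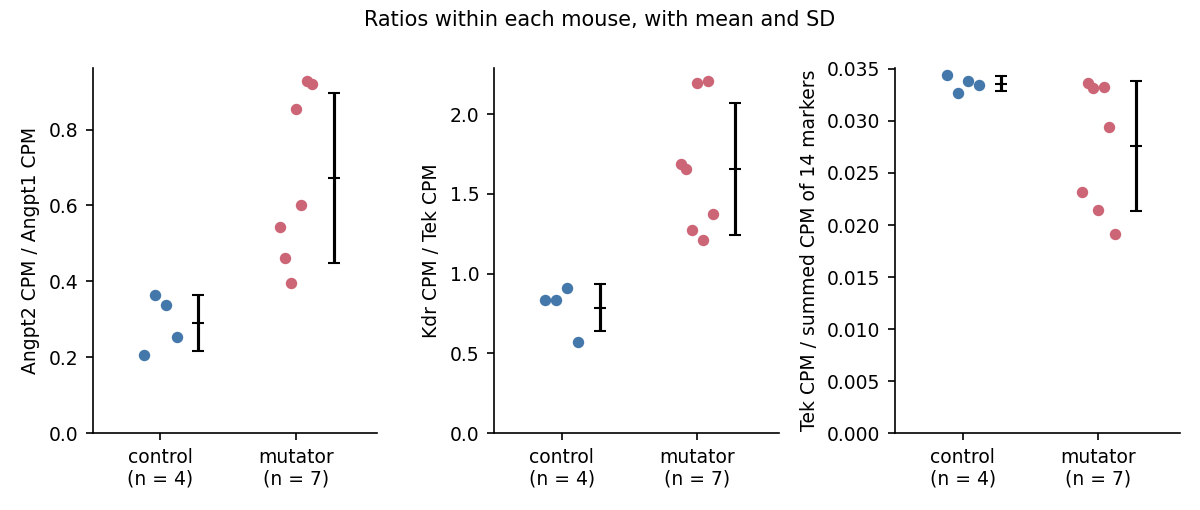
Ratio of Angpt2 to Angpt1, of Kdr to Tek and of Tek to the summed CPM of 14 endothelial markers in each mouse, with the mean and SD of 4 controls and 7 mutators. All mutators lie above the controls in the first 2 ratios, whose numerators Angpt2 and Kdr alone already lay apart. In the third, 4 of 7 lie below the controls.

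Vegfa, on chromosome 17 from 46153942 to 46169326, had 71.2, 68.6, 66.7 and 52.7 CPM in controls 205, 237, 239 and 246. Mutators ran from 76.6 (mouse 207) over 81.1 to 96.2 (mouse 236). The groups lay apart, by a narrow gap between 71.2 and 76.6 CPM, and control 246 was well under the other controls. The log2 fold change was 0.38 (SE 0.079), and 0.28 without control 246 and mutator 248. Vegfb, a ligand of Flt1 and Nrp1 known mostly for its part in metabolism and cell survival, went the other way. It had 48.3, 52.6, 48.6 and 53.6 CPM in the same controls and 35.6 to 46.9 in the mutators, with a log2 fold change of -0.25 (SE 0.063). Vegfc, a ligand of the lymphatic receptor VEGFR3, was at 2.64 ± 0.32 CPM (SD, n = 4) and 2.72 ± 0.26 (SD, n = 7). Its log2 fold change of 0.03 (SE 0.12) changed sign in 3 of 19 alternative analyses.

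Among the receptors, Kdr stood out. The gene lies on chromosome 5 from 76328852 to 76374483, on the minus strand. It had 12.2, 12.6, 13.1 and 9.63 CPM in controls 205, 237, 239 and 246, and from 14.6 (mouse 249) over 19.5 to 30.5 (mouse 248) in the mutators. No mutator was as low as any control, and 6 of the 7 lay at 17.9 CPM or above. The log2 fold change was 0.84 (SE 0.19), and 0.65 without control 246 and mutator 248.

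Flt1, on the same chromosome from 148373180 to 148537587, had 69.0, 73.6, 66.2 and 72.1 CPM in controls 205, 237, 239 and 246. The mutators ran from 72.6 (mouse 207) over 87.0 to 110 (mouse 248). Mutator 207 lay below the WT/D257A control and the other 6 lay above all controls. The log2 fold change was 0.36 (SE 0.088), and 0.31 without control 246 and mutator 248.

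Tek, on chromosome 4 from 94405980 to 94541667, had 14.7, 15.2, 14.4 and 16.8 CPM in the controls. The mutators were unevenly spread. Mice 207, 236 and 249 had 10.6, 10.9 and 10.6 CPM, mouse 248 had 13.8, and mice 211, 217 and 240 had between 15.0 and 15.4, within the range of the controls. The log2 fold change was -0.22 (SE 0.11). Tie1, also on chromosome 4, from 118143796 to 118162666, had between 9.92 and 14.5 CPM in the controls and between 8.16 and 10.6 in the mutators. Of the 7 mutators, 5 lay below the lowest control, and the log2 fold change was -0.29 (SE 0.097). It was -0.18 without control 246, which held the highest Tie1 value, and mutator 248. Nrp1, a co-receptor for VEGF and for class 3 semaphorins that neurons also express, was at 41.9 ± 2.3 CPM (SD, n = 4) and 43.0 ± 4.2 (SD, n = 7), a log2 fold change of 0.03 (SE 0.07).

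**Figure D4:**
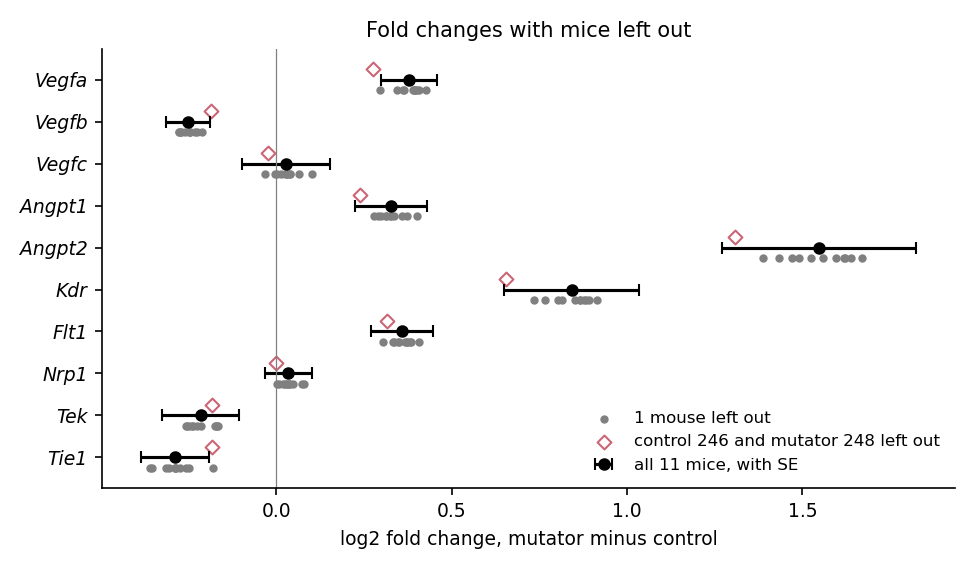
Log2 fold change of each gene between mutators and controls, as the edgeR estimate with its SE (black), with each mouse left out in turn (grey) and with control 246 and mutator 248 left out (diamonds). The sign is the same throughout for 8 genes, and the values of Nrp1 and Vegfc lie around 0.

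The receptors thus differed in sign within the same tissue. The ratio of Kdr to Tek was between 0.572 and 0.911 in the controls and between 1.21 and 2.21 in the mutators. The groups did not overlap, with a log2 difference of 1.06. Kdr alone already lay apart, and Tek was lower on average. Both genes were chosen with these values known, so the ratio is a description. To set the endothelial genes beside the amount of endothelial RNA, each was divided by the summed CPM of 14 endothelial markers, among them Pecam1, Cldn5 and Cdh5. This sum was between 426 and 503 CPM in the controls and between 448 and 554 in the mutators. All 14 markers were detected, 10 were higher in the mutators and 1 passed the test. Over all genes, 50.4% were higher and 1.24% passed. The marker that passed, Itm2a, a membrane protein gene enriched in brain endothelium, fell with a log2 fold change of -0.38 (SE 0.085, edgeR adjusted p = 0.037). That call was lost without any 1 of controls 237, 239 and 246 or mutators 240, 248 and 249, with adjusted p-values up to 0.174 and log2 fold changes between -0.41 and -0.33 in these fits.

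Relative to the marker sum, Angpt2 was higher by 1.43 on the log2 scale with no overlap, Kdr by 0.74 with 6 of 7 mutators above all controls, and Flt1 by 0.27 with 6 of 7 above. Tie1 was lower by this measure in all 7 mutators (log2 difference -0.37), at 1.73% to 2.30% of the sum against 2.33% to 2.89% in the controls. Tek was between 3.27% and 3.44% of the sum in the 4 controls and between 1.91% and 3.36% in the mutators (log2 difference -0.32), of which 4 lay below all controls. Without control 246 and mutator 248 these 5 differences kept their signs, at 1.13 for Angpt2, 0.50 for Kdr, 0.18 for Flt1, -0.32 for Tie1 and -0.34 for Tek. Part of the sum comes from Slc2a1, which astrocytes also express and which is listed below as induced by hypoxia. It had the highest level of the markers, 97.8 ± 6.2 CPM in the controls and 125 ± 31 in the mutators. A rise of this gene lowers each share. The gap for Tie1, 2.30% against 2.33%, was narrow. Differences were also taken against the mean log2 CPM of the markers. They were 1.44 for Angpt2, 0.76 for Kdr, 0.28 for Flt1, -0.35 for Tie1 and -0.30 for Tek. A sum without Slc2a1 was not tested.

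Other cell types were read in the same way. Of 9 pericyte markers, 4 were higher and 5 lower, with a median log2 fold change of -0.078. Only 1 of them passed the test, against 1.24% of all genes. This was Abcc9, a subunit of the KATP channel, which rose from 11.1 ± 0.9 to 17.5 ± 1.8 CPM (log2 fold change 0.64, SE 0.083, edgeR adjusted p = 0.00043). The pericyte sum was 223 to 244 CPM in the controls and 221 to 259 in the mutators. All 8 red cell and platelet markers were higher, with sums of 60.8 to 201 CPM in the controls and 93.5 to 262 in the mutators, and 1 passed the test. This was the platelet chemokine gene Ppbp, from 0.061 ± 0.080 to 0.627 ± 0.337 CPM (log2 fold change 3.83, SE 0.63, edgeR adjusted p = 0.0048). Its control values, 0.016 to 0.182 CPM, are near the floor, so the size of this fold is uncertain. Of the markers of smooth muscle, astrocytes, neurons, oligodendrocytes, microglia, choroid plexus and fibroblasts, none passed in edgeR. In this order 5, 7, 5, 6, 8, 6 and 5 were tested, and 0, 2, 2, 2, 0, 3 and 1 were higher. At an unadjusted p under 0.05 there were 1, 2, 2, 3, 4, 2 and 0, a level that 15.8% of all genes tested reached. DESeq2 called 1 gene each of smooth muscle (Acta2), astrocytes (Slc1a2) and oligodendrocytes (Mag), all lower, and none of the other 4 lists. The part of other cell types in the results for the 10 genes was not tested.

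Genes around the 2 pathways, with Notch, class 3 semaphorin and hypoxia-induced genes among them, were read in 7 lists of 96 genes. Of these, 91 were tested and 3 passed, 3.30% against 1.24% of all genes. DESeq2 called 8, against 3.58% of the genes it tested. The lists were written with earlier results of these data known. Egr3, an immediate early gene that VEGF induces in endothelium and activity induces in neurons, fell from 51.9 ± 3.9 to 42.0 ± 2.4 CPM (log2 fold change -0.31, SE 0.056, edgeR adjusted p = 0.0087), without overlap. Unc5b, a netrin receptor of tip cells and arteries, fell from 48.9 ± 2.8 to 36.2 ± 5.1 CPM (-0.44, SE 0.087, edgeR adjusted p = 0.021), also without overlap. Adm, which encodes the vasodilator adrenomedullin and is induced by hypoxia, rose from 1.41 ± 0.39 to 3.04 ± 0.84 CPM (1.10, SE 0.21, edgeR adjusted p = 0.013). The Unc5b call was lost without control 237 (adjusted p = 0.142) or control 239 (0.065), and the Adm call without control 239 (0.059) or control 246 (0.056). All 3 were lost without control 246 and mutator 248 together, at adjusted p-values of 0.088, 0.088 and 0.067 for Unc5b, Adm and Egr3.

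By role, none of the 4 other VEGF ligands and receptors (Pgf, Figf, Flt4 and Nrp2) passed the edgeR test, none had an unadjusted p under 0.05, and DESeq2 called none. VEGFR3 (Flt4), the receptor for VEGF-C, was at 3.85 ± 0.55 and 4.18 ± 0.56 CPM. Of the genes around angiopoietin and Tie, 16 were tested, 8 were higher and 8 lower, and none passed in edgeR, with 6 at an unadjusted p under 0.05 (15.8% of all genes). In 3 of them, Itga5, Angptl2 and Angptl6, every mutator was below every control, against 1.42% of all genes, and in 0 above. DESeq2 called Angptl4 and Angptl2. Angptl2, a secreted glycoprotein of the same family as Angptl4, was at 6.64 ± 0.21 and 5.47 ± 0.47 CPM (log2 fold change -0.28, edgeR adjusted p = 0.121). Angptl4, an inhibitor of lipoprotein lipase named for its likeness to angiopoietins, was at 1.80 ± 0.37 and 2.95 ± 0.82 CPM (log2 fold change 0.73, edgeR adjusted p = 0.068). The phosphatase VE-PTP (Ptprb), which acts on Tie2, was at 48.1 ± 2.5 and 52.5 ± 4.3 CPM, and the transcription factor Foxo1, which induces Angpt2, was at 31.1 CPM in both groups.

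Of the 17 tested genes of VEGF receptor signalling, 12 were lower and none passed, with 5 at an unadjusted p under 0.05 (15.8% of all genes) and none by DESeq2. Of 12 class 3 semaphorins and plexins, none passed by either tool, and 1 had an unadjusted p under 0.05. Of 13 endothelial Notch genes, which restrain sprouting, none passed by either tool and 1 had an unadjusted p under 0.05. Of 17 tested genes that respond to VEGF or mark tip cells, 10 were lower and 2 passed (Egr3 and Unc5b), against 1.24% of all genes. DESeq2, which called 3.58% of the genes it tested, called these 2 and Nid2. Nid2, a basement membrane gene, was at 4.31 ± 0.63 and 5.75 ± 0.59 CPM (log2 fold change 0.40, edgeR adjusted p = 0.075). Dll4, the Notch ligand that VEGF induces, was at 2.95 ± 0.49 and 3.12 ± 0.75 CPM. Of 13 genes induced by hypoxia, 12 were higher, against 50.4% of all genes, and 1 passed (Adm), against 1.24%. Their median log2 fold change was 0.12 against 0.0014 over all genes tested. DESeq2 called 3 of them, all higher (Adm, Ankrd37 and Bnip3), against 3.58% of the genes it tested. Their summed level was 670 to 686 CPM in the controls and 723 to 821 in the mutators. Slc2a1, the glucose transporter of the blood-brain barrier, belongs to this list and to its sum too. It went from 97.8 ± 6.2 to 125 ± 31 CPM (log2 fold change 0.35, edgeR adjusted p = 0.36).

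The genes whose pattern over the 11 mice was closest to that of Angpt2 were sought by the root mean square difference in log2 CPM, each gene taken relative to its mean in the controls. The closest 5 were Edn1 (0.28), Rtp1 (0.35), Acer2 (0.36), Smad6 (0.39) and Cxcl12 (0.40). Kdr, the closest of the other 9 ligands and receptors by rank, was number 34 (0.65). The measure uses the size of the difference between the groups, so it is a description of these values.

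Reads had also been counted over exon bins, the non-overlapping pieces of exons, in the 7 mutators and the 3 WT/WT mice. Bin usage, the weight of a bin within its own gene, is a measure in which the level of the gene cancels, so it was tested. Of 199 tested bins of the 10 genes, none was called by edgeR, against 0.0232% of the 206930 bins tested, and none by limma. At an unadjusted p under 0.05 there were 3, or 1.51%, against 1.91% of all bins, and all 3 belonged to Flt1. The bin with the smallest p among them was that of the soluble form, which also had the largest usage difference of the bins with a mean of at least 50 counts.

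Full-length Flt1 and soluble Flt1 share their first exons and part at the end of a shared exon of 309 bases. The membrane form joins this exon to the next, while the soluble form reads on into the intron and stops there. The sequences at this fork are shown because the 2 forms part there. They are from mm9, minus strand of chromosome 5, and both begin with the last 30 bases of the shared exon (chr5:148450801-148451109). In the soluble form, the capitals mark the GT of the splice site that is not used, and the line ends with the stop codon. In the membrane form, the capitals mark the first 30 bases of the next exon.
soluble Flt1: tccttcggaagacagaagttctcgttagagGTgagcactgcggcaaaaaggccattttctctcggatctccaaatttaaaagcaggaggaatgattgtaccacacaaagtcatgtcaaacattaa
membrane Flt1: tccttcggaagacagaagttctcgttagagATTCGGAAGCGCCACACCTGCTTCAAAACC

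The bin that only the soluble form contains spans chr5:148446735-148450800, 4066 bases. Its share of all Flt1 bin counts was 12.3%, 10.5% and 11.7% in WT/WT mice 205, 239 and 246. In the mutators it ran from 13.6% (mouse 217) over 14.7% to 16.4% (mouse 248). All mutators lay above all WT/WT mice, as was the case in the same direction for 0.716% of all bins tested. The mean went from 11.5 ± 0.9% (SD, n = 3) to 14.8 ± 0.9% (SD, n = 7). The 20 bins that only the membrane form contains held 48.4 ± 0.8% and 44.2 ± 1.9%, lower in every mutator (2 of these bins, as 0.682% of all bins tested, were each lower without overlap), while the 13 bins of both forms held 40.0 ± 1.0% and 40.9 ± 1.4%, with overlap. The log2 usage differences did not split at the fork. Membrane bins 1 to 8, at the 3′ end, lay between -0.35 and -0.14, and those from bin 9 to 21 between -0.05 and 0.15. Shared bins 23, 24 and 26, nearest the fork, were at 0.12, 0.24 and 0.21, and the other shared bins between -0.10 and 0.09. The cause of this unevenness was not tested.

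In CPM of bin counts, the soluble bin went from 7.78 ± 0.88 to 13.2 ± 2.5, which is 1.70-fold, and the membrane bins from 32.7 ± 1.2 to 39.3 ± 5.0, which is 1.20-fold. The ratio of soluble to membrane counts was 0.237 ± 0.021 in WT/WT mice and 0.335 ± 0.032 in mutators, above all WT/WT mice in 7 of 7. In the test over all bins the log2 usage difference was 0.37 and the adjusted p was 0.391 (edgeR), or 0.227 with limma, so it did not pass, although the groups did not overlap. Leaving out each mouse in turn gave adjusted p-values from 0.058 to 1.00 and kept the share in the mutators higher by 2.76 to 3.67 percentage points, beside 3.27 with all 10 mice. Reads that fell in no bin, which include intronic ones, made up 20.62% to 20.77% of the counted reads in WT/WT mice and 20.78% to 23.40% in mutators. Every mutator was thus above every WT/WT mouse in this measure too, and mouse 248 was the highest in both. The part of these reads in the Flt1 result was not tested. The 2 Flt1 bins found only in non-coding transcripts, bins 16 and 17, have 381 bases in all. They lie in introns of the membrane form, past the end of the soluble form. They held 31.5 counts per kb over the 10 mice, against 1604 in the soluble bin and 4492 in the membrane bins. Bin 25, of 241 bases, lies in an intron of both forms and belongs to another coding transcript, with a mean of 5.1 counts per mouse. These counts join both groups, so they do not show how intronic reads differed between them.

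**Figure D5:**
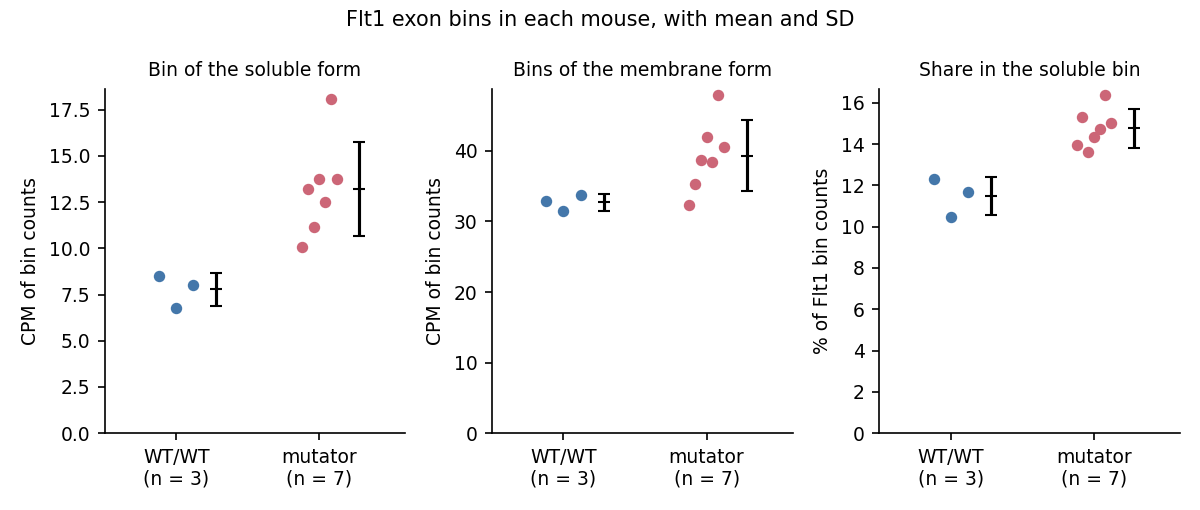
Flt1 exon bins in 3 WT/WT mice and 7 mutators, as CPM of the bin of the soluble form, CPM of the 20 bins of the membrane form and the share of Flt1 bin counts in the soluble bin; points are mice and bars the mean and SD. The share is 10.5% to 12.3% in WT/WT mice and 13.6% to 16.4% in mutators.

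For Vegfa, the splice choice that matters most is whether the exons that code for heparin binding are kept, which sets whether the ligand is held by the matrix. These exons have 72 and 132 bases and lie at chr17:46159226-46159297 and chr17:46157940-46158071 of mm9, on the minus strand. They are shown whole because they are the pieces whose share was measured.
Vegfa 72-base exon: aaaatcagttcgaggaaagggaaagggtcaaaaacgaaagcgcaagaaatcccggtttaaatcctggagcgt
Vegfa 132-base exon: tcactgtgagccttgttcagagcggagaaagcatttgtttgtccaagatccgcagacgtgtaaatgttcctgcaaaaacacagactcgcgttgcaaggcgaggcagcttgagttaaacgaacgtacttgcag

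The 72-base exon held 1.05 ± 0.03% of Vegfa bin counts in WT/WT mice (SD, n = 3) and 1.01 ± 0.11% in mutators (SD, n = 7), from 16 to 100 counts per mouse. The 132-base exon held 6.65 ± 0.42% and 6.74 ± 0.41%. The groups overlapped for both exons, and for the 197-base exon at 7.61 ± 0.12% and 7.65 ± 0.30%. Among the other genes, no bin with a mean of at least 50 counts differed in usage by more than 0.21 on the log2 scale, the value of a Nrp1 bin (adjusted p = 1.00). Angpt2 is read over its whole length at few counts, so its bins say little: the best counted one, at its 3′ end, had a mean of 51.3 counts per mouse.

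Promoter sequence, the 250 bases before each annotated start, was at hand from RefSeq (GRCm38.p6) for 8 of the 10 genes in 9 windows. Angpt1 and Angpt2 had no entry, and sequence farther from a start was not searched. The hypoxia core ACGTG was found on either strand in 1 window, that of the second, internal start of Vegfa, against 16.6% of the 32851 windows of all genes. The forkhead core GTAAACA was in 0 of 9, against 3.17%. The ETS motif CCGGAA, of a transcription factor family with members in endothelium, was in 1 window, that of Kdr, against 12% of all windows. Only this form was searched. The shorter GGAA also occurs in other windows, those of Tie1 and Flt1 among them. The Kdr window is shown because it is the receptor with the largest fold and the only one with this match. It is on the minus strand of chromosome 5 from 75978456 to 75978705, and the capitals mark the match, which lies on the other strand.
Kdr promoter: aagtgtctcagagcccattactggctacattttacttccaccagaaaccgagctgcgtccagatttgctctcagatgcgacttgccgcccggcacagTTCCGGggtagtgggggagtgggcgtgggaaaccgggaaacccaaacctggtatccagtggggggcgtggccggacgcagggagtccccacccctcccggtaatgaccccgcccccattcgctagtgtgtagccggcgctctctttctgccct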

How the data were processed

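Poly(A)+ RNA was sequenced as paired-end reads. Per the labels, the authors aligned reads to mm9 with TopHat2 2.0.6 and Bowtie2 2.0.2.0, counted them per gene and exon bin with HTSeq 0.5.3p9 and deposited whole-number counts without normalization. The strand setting of the counting is not given in the sources used here. Read totals and the percent aligned were deposited by the authors as well. Tables of the authors' own comparisons, with fold changes and p-values, were not used, and 0 sample columns were left unmapped.

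Gene counts of 7 mutators and 4 controls were filtered (filterByExpr), scaled by TMM and tested with the edgeR 4.0.16 quasi-likelihood test, with Benjamini-Hochberg adjustment over 17983 genes and a threshold of 0.05. Exon bins of 7 mutators and 3 WT/WT mice were tested with diffSpliceDGE. Alternatives were DESeq2 1.42.0, limma 3.58.1, other normalizations and filters, the total count as a covariate, WT/WT controls only, and each mouse left out. The gene test and the exon bin test were tried on simulated counts, and the other steps were not. In tissue of separate animals, p-values measure the spread between mice. No sequencing pool is given per mouse, so none was modelled. Levels per kilobase and bin coordinates use the GENCODE M1 annotation of the same build (NCBIM37), a later release than the authors', whose bins matched in number for 10 of 10 genes. Mir1903 shares the bin group of Nrp1.

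The 10 genes, the marker and pathway lists, and the tests were chosen with earlier results of these data known. Named were all 10 genes, every list gene under the threshold, the bin with the largest usage difference per gene among bins with a mean of at least 50 counts together with bins of some coding transcripts, and the 5 genes most like Angpt2. Genes named beyond this rule were chosen after their values were seen. Rbfox3, of 6 neuron markers, was not in the table.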

Additional observations from a re-analysis of the deposited data

Results flagged for a closer look

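In 49 groups of values checked for 1 mouse far from the others, 2 stood apart, where chance gives about 1 in 20, or 2.45. Mutator 248 had 3.00 gene counts per aligned read against 0.744 to 0.772 in the other mutators, a gap that is 0.988 of the group's range. Control 246 was highest for Ppbp, with 0.182 CPM against 0.0160 to 0.0245 in the other controls, a gap that is 0.949 of the range. None of the CPM values of the 10 genes, their ratios or the share of the soluble Flt1 bin stood apart in this way, although mouse 248 was the highest mutator for 5 of the genes.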

How the results depend on the processing

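The log2 fold changes of 8 of the 10 genes kept their sign in all 19 alternatives, of which 2, WT/WT controls only and leaving out control 237, are the same fit. That of Nrp1 did in 18 and that of Vegfc in 16, and both stayed close to 0. The number of the 10 genes called was 2 (Vegfa and Angpt2) and moved with the setting. DESeq2 called 5 (Vegfa, Vegfb, Kdr, Flt1 and Angpt2), against 3.58% of 17202 genes. WT/WT controls only gave 0, against 0.273% of all genes, and leaving out control 246 and mutator 248, an alternative chosen after seeing the data, gave 1 (Angpt2). Leaving out 1 mouse gave between 0 and 4, with 0 without control 237, 239 or 246, 1 without mutator 211 and 4 without mutator 217. Of the other pathway genes 3 were called. DESeq2 called 8, leaving out control 246 and mutator 248 gave 1 (Icam1), and leaving out 1 mouse gave between 1 (without control 239) and 5 (without control 205). The calls of Abcc9 and Ppbp held in all 19 alternatives. No exon bin of the 10 genes was called in any of 12 alternatives. All ratios and the share of the soluble Flt1 bin kept their direction in all alternatives run, those with mice left out among them. The cause of these shifts was not tested. No paired analysis was possible because the labels give no replicate numbers that the groups share. Of the 10 genes, depth limits Angpt2 and Vegfc most, with as few as 42 and 62 counts in a mouse.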
